A study of Mus musculus with 6 samples.

Results

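Macrophages clear spent and damaged cells, open the heme they take up with heme oxygenase 1, and either store the freed iron in ferritin or return it to plasma through ferroportin. In the injured kidney the same pathway handles heme and iron released from red cells and tubules, and its genes answer to heme, oxidative stress and the iron content of the cell. The 10 genes described here cover these steps and were taken by symbol from the deposited count table, in which all 10 were found among 46603 genes. They are Hmox1 and Blvrb (heme breakdown), Slc48a1 (heme transport), Slc40a1 and Cp (iron export), Fth1 and Ftl1 (storage), Tfrc (uptake), and Slc11a1 and Slc11a2 (transport of iron out of phagosomes and endosomes).

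Poly(A) RNA of CD11B+ cells from the kidney was sequenced in 3 PTEC DN RAR mice, which were PEPCK CRE+, and in 3 Cre- control mice, which were PEPCK CRE-, with 1 library per mouse. Both genotypes carried Rosa26-LSL-RARaT403X. All were males of 10 to 12 weeks, killed on day 3 after both renal pedicles had been clamped for 28 minutes, so no uninjured mouse enters any comparison. The allele encodes a truncated, dominant negative RARa behind a stop cassette and was homozygous in PTEC DN RAR mice. PEPCK-Cre removes the cassette in proximal tubular epithelial cells (PTECs), so the comparison asks how blocking retinoic acid receptors in the tubule goes with expression in neighbouring CD11B+ cells, which were taken with antibody-coated magnetic beads and no further sort.

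Reads summed over genes came to between 29318041 and 46517005 per library, and the 10 genes held from 978 to 316286 reads each. Counting error was not separated from the spread between mice. Values are given in CPM, a gene's counts relative to the TMM-scaled library total. The log2 fold change of PTEC DN RAR over Cre- control (log2FC) and its standard error (SE) come from the quasi-likelihood test of edgeR, and p was adjusted after Benjamini and Hochberg over the 15440 genes that passed a filter on low counts. All 10 genes passed it. At an adjusted p under 0.05, 40.6% of all genes tested were called, 17.1% lower and 23.6% higher in PTEC DN RAR libraries, and in 53.4% the ranges of the genotypes were apart. Defining genes of CD11B+ myeloid cells were abundant throughout, but 3 of 7 (Itgam, Cd68 and Lyz2) and 9 of 26 pan-leukocyte genes were lower and 0 of either list higher. Itgam, the gene for CD11B itself, measured 1737, 1959 and 1995 CPM in Cre- controls and 1366, 1303 and 980 CPM in PTEC DN RAR libraries (log2FC -0.64, SE 0.14, adjusted p = 0.00818). Rara, whose reads could not be separated from those of the transgene, had a log2FC of -0.33 (adjusted p = 0.0628). PTEC DN RAR libraries held more reads on markers of other kidney cells. Markers of 4 compartments were higher throughout: all 16 proximal tubule markers, all 6 of the thick ascending limb, all 5 of the distal convoluted tubule and all 8 of endothelium. Of 7 collecting duct markers 4 were higher and 3 did not pass. Their sums overlapped between genotypes, from 98.4 to 268 CPM in controls and from 218 to 475 CPM in PTEC DN RAR libraries. By contrast, 7 of 8 markers of infiltrating monocytes and 5 of 9 tested of neutrophils were lower, as were 2 of 3 tested of platelets.

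The regulatory sequence that several of these genes share is the iron-responsive element, a hairpin in the mRNA that iron regulatory proteins hold when cellular iron is low. In a 5′ UTR this binding blocks translation, and in the 3′ UTR of Tfrc it protects the mRNA from decay, so read counts report on the second arm and not on ferritin or ferroportin protein. The transcripts of GENCODE M21 were searched on the mRNA strand for CNNNNNCAGTGN in which the 5 bases before CAGTGN pair with the 5 after it, with G-T pairs allowed and the last base of CAGTGN not G. The matches are shown 5′ to 3′ in DNA letters, with the unpaired C and the loop in capitals. The Fth1, Ftl1 and Slc40a1 mRNAs had 1 match at the front, and the Tfrc mRNA had several at the back.
Fth1, 5′ UTR, chr19:9982732-9982760 (plus strand): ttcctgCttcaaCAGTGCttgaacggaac
Ftl1, 5′ UTR, chr7:45459779-45459807 (minus strand): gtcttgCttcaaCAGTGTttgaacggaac
Slc40a1, 5′ UTR, chr1:45925465-45925493 (minus strand): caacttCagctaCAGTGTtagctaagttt
Tfrc, 3′ UTR, chr16:32631219-32631247 (plus strand): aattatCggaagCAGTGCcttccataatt
Tfrc, 3′ UTR, chr16:32631598-32631626 (plus strand): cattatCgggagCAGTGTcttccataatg
Tfrc, 3′ UTR, chr16:32631663-32631691 (plus strand): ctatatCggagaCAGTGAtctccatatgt
Tfrc, 3′ UTR, chr16:32631710-32631738 (plus strand): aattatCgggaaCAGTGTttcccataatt
Coordinates are those of GRCm38. The letters occurred in the 5′ UTR of 23 of 20916 genes (0.11%) and in the 3′ UTR of 100 of 21707 (0.461%). They were not found in the annotated UTRs of the other 6 genes, which says only that these letters are not there. An element with a further bulge or mismatch in its stem would be missed, so the search does not show that Slc11a2 or the others lack one.

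Hmox1 was the member with the greatest difference, and the genes for the heme transporter HRG1, ferroportin and light ferritin fell as well. Of the 10 genes, 4 fell (Hmox1, Slc40a1, Ftl1 and Slc48a1), 2 rose (Cp and Slc11a2), and 4 did not pass the test (Blvrb, Fth1, Slc11a1 and Tfrc). The 4 of 10 that fell stand beside 17.1% of all genes, and the 2 of 10 that rose beside 23.6%. The median log2FC of the 10 was -0.44, against 0.04 for all genes tested. In 6 of the 10 every PTEC DN RAR library lay below every control, against 24.2% of all genes, and in 2 every one lay above, against 29.2%. In bulk RNA, fewer cells of a type and less RNA per cell cannot be told apart. The count of 4 that fell depended on scaling, tool and filter. It was 1 with libraries scaled on pan-leukocyte genes, beside 4.73% of all genes there, and 7 with DESeq2 or with no filter. Among all genes, 3278 of 15435 fell with DESeq2 and 2741 of 25387 with no filter. The count was 2 without Cre- control replicate 1, 2 without PTEC DN RAR replicate 2, and 6 without Cre- control replicate 2. Among all genes, 2824 of 15966, 1885 of 15714 and 2275 of 15901 fell in these fits, in that order.

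**Figure D1:**
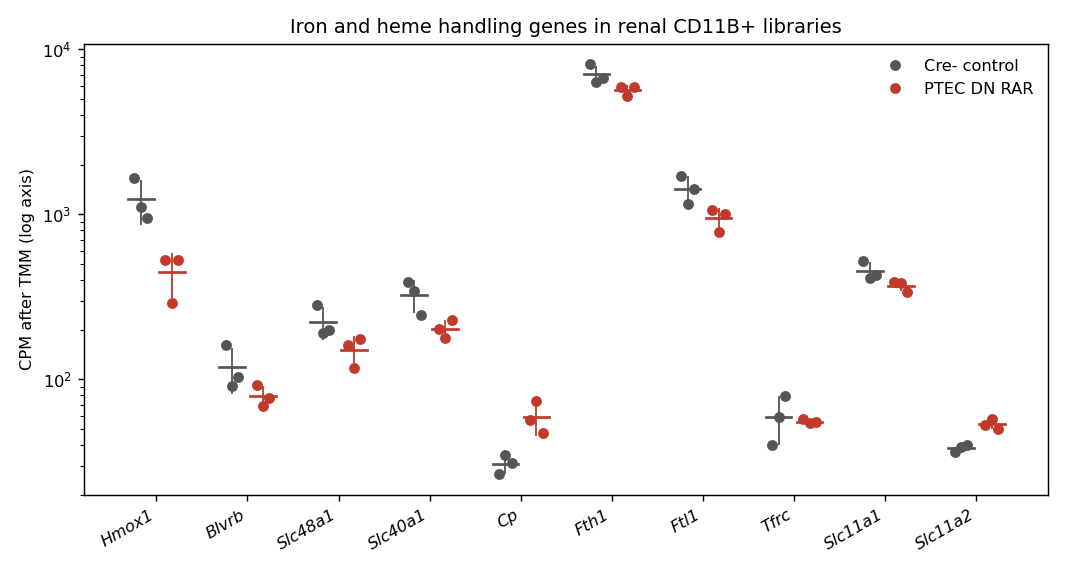
Level of each of the 10 genes in CPM after TMM (log axis) in 3 Cre- control (grey) and 3 PTEC DN RAR (red) libraries; points are single mice, horizontal bars means and vertical bars SD. Hmox1 shows the widest gap, from 952 CPM in the lowest control to 532 CPM in the highest PTEC DN RAR library, and Cp and Slc11a2 are the pair that lie higher in PTEC DN RAR mice.

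Heme breakdown was led by Hmox1, the inducible heme oxygenase, which opens the heme ring and releases iron, carbon monoxide and biliverdin (ENSMUSG00000005413, chromosome 8 of GRCm38 from 75093621 to 75100589). It measured 1663, 1100 and 952 CPM in Cre- controls and 526, 292 and 532 CPM in PTEC DN RAR libraries. The lowest control was thus well above the highest PTEC DN RAR library, although libraries within either genotype differed by up to 1.82 times. The means were 1238 ± 375 CPM and 450 ± 137 CPM (SD, n = 3 each), a 2.75-fold lower level (log2FC -1.46, SE 0.27, adjusted p = 0.00372 by edgeR). Only 0.874% of all genes tested had a more negative log2FC. The call held with any 1 mouse left out and under each tool, scaling and filter tried, with log2FC between -1.67 and -1.19.

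Blvrb encodes biliverdin reductase B, which also acts as a flavin reductase (ENSMUSG00000040466, chromosome 7 from 27447978 to 27466144). It measured 161, 91.1 and 103 CPM in controls and 92.7, 69.0 and 77.1 CPM in PTEC DN RAR libraries. Cre- control replicate 1 stood above the rest, and the other values nearly met, with the highest PTEC DN RAR library just above the lowest control. The log2FC of -0.57 (SE 0.21, adjusted p = 0.0531 by edgeR) narrowly missed the threshold and passed it under 7 alternatives, among them DESeq2 (adjusted p = 0.0119, range 0.00939 to 0.18 over all alternatives but the tubule covariate given further on, as for each range here). Blvra, the gene for the reductase that makes bilirubin from biliverdin in adult tissue, fell by 0.45 on the log2 scale (edgeR, adjusted p = 0.00882), and so did Hmox2, the constitutive heme oxygenase, by 0.47 (adjusted p = 0.00921). Slc48a1 encodes HRG1, which carries heme out of the phagolysosome (ENSMUSG00000081534, chromosome 15 from 97778520 to 97792692). Its levels were 281, 192 and 198 CPM in controls and 161, 117 and 176 CPM in PTEC DN RAR libraries. The groups did not overlap, but the gap between them, from 192 to 176 CPM, was narrower than the spread within either. It fell 1.48-fold (log2FC -0.56, SE 0.19, adjusted p = 0.0398 by edgeR). The call was lost without Cre- control replicate 1 (adjusted p = 0.106), without PTEC DN RAR replicate 1 (0.0709) and without PTEC DN RAR replicate 2 (0.106), within a range over alternatives from 0.0074 to 0.209.

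Iron export was represented by ferroportin and a ferroxidase, which went opposite ways. Slc40a1 encodes ferroportin, the exporter of ferrous iron (ENSMUSG00000025993, chromosome 1 from 45908068 to 45926523), and measured 389, 344 and 244 CPM in controls and 201, 178 and 229 CPM in PTEC DN RAR libraries. All PTEC DN RAR libraries were lower, with Cre- control replicate 3 the nearest to them. It fell 1.61-fold (log2FC -0.69, SE 0.17, adjusted p = 0.0127 by edgeR), and by 0.54 to 0.90 on the log2 scale with 1 mouse left out. It did not pass under pan-leukocyte scaling (log2FC -0.47, adjusted p = 0.0699, range over alternatives 0.000429 to 0.0699). Cp encodes ceruloplasmin, the copper ferroxidase that readies exported iron for transferrin (ENSMUSG00000003617, chromosome 3 from 19957054 to 20009145). It measured 26.6, 34.6 and 31.0 CPM in controls and 56.5, 74.2 and 47.2 CPM in PTEC DN RAR libraries. Every PTEC DN RAR library was higher, and the rise was 1.93-fold (log2FC 0.95, SE 0.17, adjusted p = 0.00327 by edgeR). Heph, the membrane-bound relative of ceruloplasmin, rose by 1.37 on the log2 scale (edgeR, adjusted p = 0.0152) from a low level of 3.62 ± 1.61 CPM in controls (SD, n = 3). It did not pass without Cre- control replicate 3 (adjusted p = 0.0612) or without PTEC DN RAR replicate 3 (0.0521).

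The ferritin genes, which store iron, had the highest levels per kilobase of the group, given further on. Fth1 (ENSMUSG00000024661, chromosome 19 from 9980598 to 9985098) encodes the ferritin heavy chain, which oxidizes iron as it enters the shell, and took from 0.518% to 0.776% of all gene counts. Its levels were 8103, 6332 and 6721 CPM in controls and 5944, 5220 and 5885 CPM in PTEC DN RAR libraries. Although the groups did not overlap, the log2FC of -0.31 did not pass (SE 0.14, adjusted p = 0.108 by edgeR), with a 95% interval from -0.63 to 0.01. Ftl1 (ENSMUSG00000050708, chromosome 7 from 45457944 to 45459884) encodes the light chain, which supports the iron core, and measured 1702, 1163 and 1415 CPM in controls and 1060, 777 and 1006 CPM in PTEC DN RAR libraries. It fell 1.51-fold (log2FC -0.59, SE 0.17, adjusted p = 0.0224 by edgeR), and did not pass without Cre- control replicate 1 (adjusted p = 0.0576) or without PTEC DN RAR replicate 2 (0.0695), within a range over alternatives from 0.00116 to 0.114. The value is uncertain in another way, because 78.9% of the 50-base stretches of its main transcript also occur in transcripts of other genes, mostly the pseudogene Ftl1-ps1, and reads aligned to more than 1 place were not counted. The corresponding share was 4.01% for Fth1 and at most 0.838% for each of the other 8 genes, not counting copies outside annotated transcripts. Ncoa4 encodes the receptor that delivers ferritin to lysosomes, and 43.1% of its main transcript is shared in the same way, mostly with Gm6768. It measured 9.68, 8.69 and 5.99 CPM in controls and 1.91, 2.07 and 7.42 CPM in PTEC DN RAR libraries, where replicate 3 alone lay among the controls. Its log2FC was -1.09 (SE 0.48, adjusted p = 0.103 by edgeR), and without PTEC DN RAR replicate 3 it was -2.07 (adjusted p = 0.0015, range 0.0015 to 0.247).

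Of the 3 members that bring iron into the cytosol, 1 rose and 2 did not pass. Tfrc, the transferrin receptor (ENSMUSG00000022797, chromosome 16 from 32608920 to 32632794), measured 39.7, 59.3 and 78.7 CPM in controls and 57.3, 54.1 and 54.9 CPM in PTEC DN RAR libraries. The controls spanned both sides of the 3 closely placed PTEC DN RAR values, and the log2FC was -0.09 (SE 0.21, adjusted p = 0.739 by edgeR), with a 95% interval from -0.56 to 0.37. Its sign turned under scaling on leukocyte genes (log2FC 0.11) and without Cre- control replicate 3 (0.12). Slc11a1 (ENSMUSG00000026177, chromosome 1 from 74375195 to 74386062) encodes NRAMP1, a metal transporter of the phagosome membrane in macrophages and neutrophils. It measured 523, 411 and 432 CPM in controls and 389, 381 and 341 CPM in PTEC DN RAR libraries, without overlap but with a log2FC of -0.30 that did not pass (SE 0.11, adjusted p = 0.0653 by edgeR). It passed under 7 alternatives, among them DESeq2 (adjusted p = 0.0168, range 0.0168 to 0.548). Its relative Slc11a2 (ENSMUSG00000023030, chromosome 15 from 100387898 to 100425072) encodes DMT1, which moves ferrous iron out of endosomes in most cells and takes it up at epithelial surfaces. Slc11a2 measured 36.3, 39.0 and 39.8 CPM in controls and 52.5, 57.3 and 50.3 CPM in PTEC DN RAR libraries. The 3 values of each genotype lay close together and apart from the other, and the gene rose 1.39-fold (log2FC 0.48, SE 0.09, adjusted p = 0.00361 by edgeR).

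**Figure D2:**
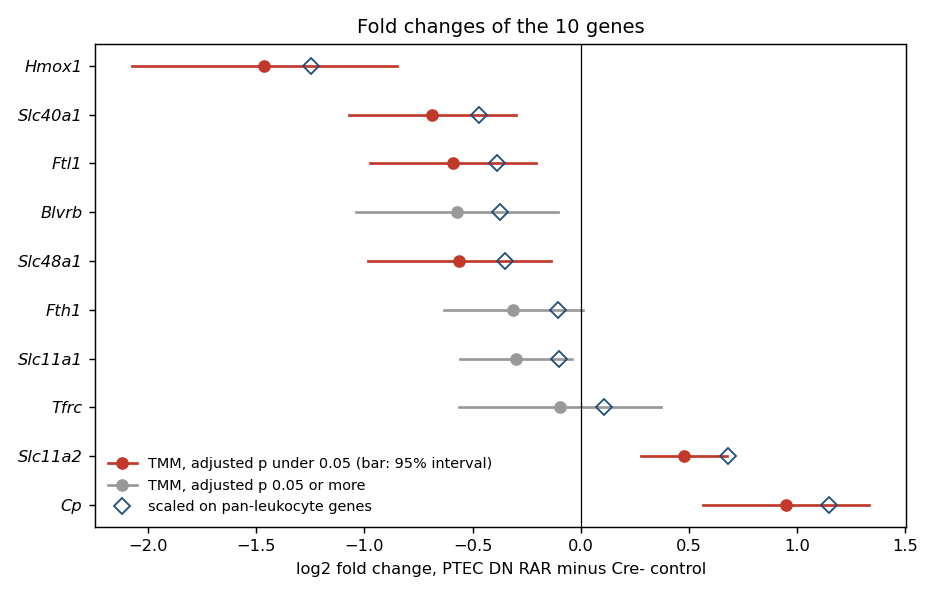
Log2 fold change of each of the 10 genes, PTEC DN RAR minus Cre- control, by edgeR with TMM (filled points, red where the adjusted p was under 0.05, bars 95% intervals) and with libraries scaled on pan-leukocyte genes (open diamonds). The diamonds lie about 0.2 to the right of the points, Hmox1 stays at -1.25 and Tfrc crosses 0.

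Levels between genes were compared per kilobase of the main transcript. In Cre- controls Fth1 came first with 4720 CPM per kilobase, then Ftl1 with 1474, Hmox1 with 789 and Slc11a1 with 197, and the ranges of these 4 and of the next gene did not overlap. Blvrb (115), Slc40a1 (96.7) and Slc48a1 (88.2) overlapped in that order and lay apart from the last 3, Slc11a2 (12.7), Tfrc (12.1) and Cp (7.63 CPM per kilobase), which again overlapped. In PTEC DN RAR libraries the first 8 places were the same, and Cp (14.7) and Tfrc (11.3 CPM per kilobase) changed places with overlapping ranges. The level of Ftl1 leaves out reads shared with its copies.

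The same libraries stood at the ends of their genotype in most members. In each of the 7 genes with a negative log2FC other than Tfrc, Cre- control replicate 1 was the highest control, and in 6 of the 7 PTEC DN RAR replicate 2 was the lowest library of its genotype. Over all 6 libraries, Pearson's r of log2 CPM with Hmox1 was 0.96 for Slc48a1, 0.94 for Slc40a1, Fth1 and Ftl1, 0.87 for Blvrb, 0.79 for Slc11a1, -0.97 for Cp and -0.98 for Slc11a2, and -0.20 for Tfrc. These points share libraries and the difference between genotypes. Of 8992 genes with a mean of at least 10 CPM, those with the highest r with Hmox1 over the 6 libraries were Slc37a2, Wwp2 and Plscr1 (r of 0.998, 0.997 and 0.994), whose log2FCs were -0.35, -0.22 and -0.30.

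**Figure D3:**
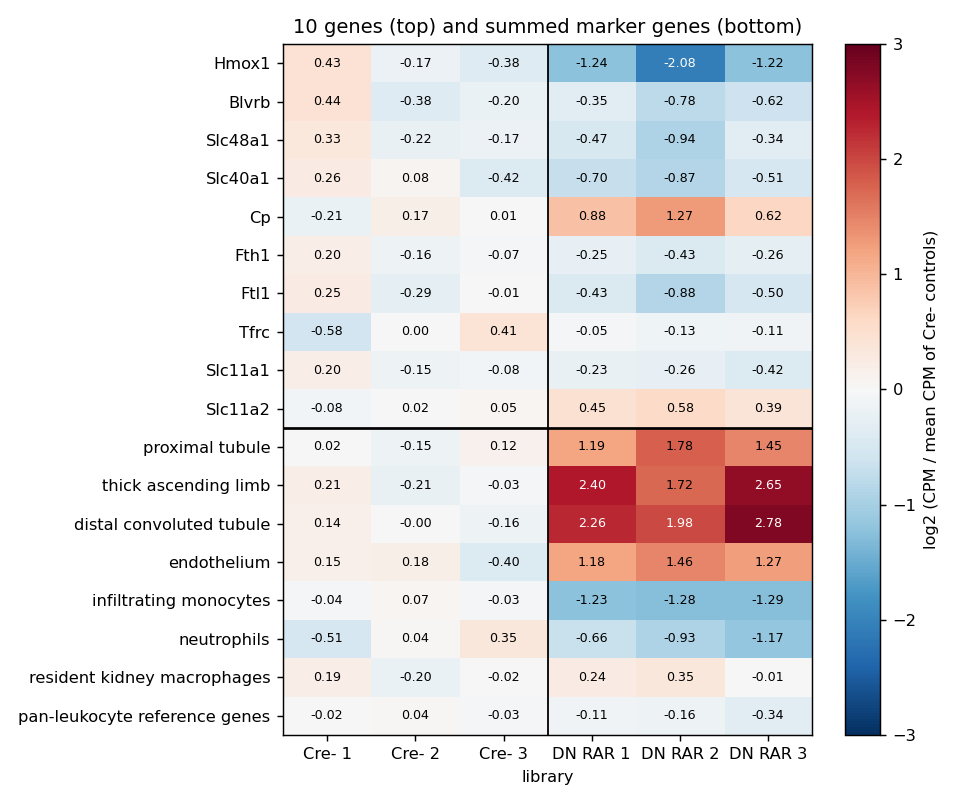
Log2 ratio of each library's CPM to the mean of Cre- controls for the 10 genes (above the line) and for summed marker genes of cell types (below it), libraries in columns. Hmox1 is at -2.08 in PTEC DN RAR replicate 2. Cp (1.27) and markers of the proximal tubule (1.78), endothelium (1.46) and resident kidney macrophages (0.35) are highest in that library. Those of the thick ascending limb (1.72) and distal convoluted tubule (1.98) are there the lowest of the 3 PTEC DN RAR libraries.

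Markers of other cells moved with these genes. Summed proximal tubule markers ranged from 1152 to 1388 CPM in controls and from 2917 to 4397 CPM in PTEC DN RAR libraries, and those of the thick ascending limb from 1182 to 1582 and from 4500 to 8589 CPM. PTEC DN RAR replicate 2 was the highest library for Cp and Slc11a2, the members that rose, and for proximal tubule markers. It was also the highest for markers of endothelium (310 CPM), resident kidney macrophages (22707 CPM) and red pulp-type macrophages (357 CPM). The same library was the lowest of its genotype for markers of the thick ascending limb (4500 CPM), distal convoluted tubule (647 CPM) and collecting duct (218 CPM). Infiltrating monocyte markers summed to between 3812 and 4113 CPM in controls and between 1611 and 1673 CPM in PTEC DN RAR libraries, while those of resident kidney macrophages overlapped (15527 to 20411 and 17762 to 22707 CPM). Platelet markers, nearly all of them reads on Pf4 and Ppbp, summed to between 278 and 412 CPM in controls and between 34.9 and 47.0 CPM in PTEC DN RAR libraries, and neutrophil markers to between 466 and 842 and between 295 and 420 CPM. Among the other platelet markers Itga2b had a log2FC of 0.02 and did not pass, and Gp1bb, Gp9 and Gp6 reached no more than 0.64 CPM in any library. The 7 defining myeloid genes summed to between 20328 and 22514 CPM in controls and between 13715 and 16239 CPM in PTEC DN RAR libraries, with Lyz2 alone at 12697, 11750 and 13975 CPM in controls and 8301, 5959 and 8978 CPM in PTEC DN RAR libraries. Csf1r, Itgb2, Ptprc and Tyrobp did not pass and overlapped between genotypes (log2FC -0.02, -0.07, -0.11 and -0.26). Red cell transcripts were near 0, with Hbb-bs at no more than 8.74 CPM and Tspo2 without a read in any library. The 10 erythroid markers measured summed to between 8.25 and 24.2 CPM in controls and between 34.2 and 63.9 CPM in PTEC DN RAR libraries. The 1 of 5 tested that rose was Slc4a1, also a collecting duct marker, at 11.2, 6.78 and 5.99 CPM in controls and 51.7, 29.8 and 62.0 CPM in PTEC DN RAR libraries. The part of these cells in the results was not tested. When the proximal tubule marker mean was added to the fit, no member passed (adjusted p = 0.999 for each call), and Hmox1 was at -0.055, Slc40a1 at -0.030, Cp at 0.40 and Slc11a2 at 0.24 on the log2 scale. All 3 PTEC DN RAR libraries exceeded all 3 controls in that mean, and its part and that of genotype cannot be told apart. With libraries scaled on 26 pan-leukocyte genes, which moved the median of all genes from 0.04 to 0.24, Hmox1 still fell (log2FC -1.25), Cp and Slc11a2 still rose (1.15 and 0.68), and Slc40a1, Ftl1 and Slc48a1 did not pass (adjusted p = 0.0699, 0.114 and 0.209).

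Other genes of iron and heme metabolism did not go one way. Of 71 listed genes, 63 passed the filter on low counts, and of these 11 fell, 21 rose and 31 did not pass, with a median log2FC of 0.17. Among all genes tested 17.1% fell and 23.6% rose, so the share that fell was near that of all genes. Under pan-leukocyte scaling 4 fell and 29 rose, beside 4.73% and 30.8% of all genes. An activator and a repressor of Hmox1 transcription both fell. Nfe2l2, the gene for the activator NRF2, went from 373 ± 32.0 to 254 ± 11.2 CPM (SD, n = 3 each; log2FC -0.56, adjusted p = 0.00257 by edgeR), and Bach1, the heme-sensing repressor, from 214 ± 10.7 to 153 ± 12.5 CPM (log2FC -0.49, adjusted p = 0.00406), a call lost under pan-leukocyte scaling (adjusted p = 0.125, range 2.02e-05 to 0.125). Those of Hmox2 and Blvra were lost there too (0.132 and 0.139). Among the other genes for heme breakdown, transport and sensing, Flvcr2 rose by 1.74 and Abcg2, a porphyrin and urate exporter, by 1.10 on the log2 scale (edgeR, adjusted p = 0.00752 and 0.00054). The level of Flvcr2 was low, at 1.05 ± 0.606 CPM in controls (SD, n = 3), and its log2FC ran from 1.40 to 2.31 with 1 mouse left out. Of 3 tested genes for scavenging of hemoglobin and heme, 1 fell and 0 rose, beside the same shares of all genes. The gene that fell was Lrp1 (log2FC -0.57, adjusted p = 0.00266 by edgeR). Cd163, the macrophage receptor for hemoglobin bound to haptoglobin, measured 10.7, 23.3 and 22.4 CPM in controls and 6.74, 15.6 and 6.72 CPM in PTEC DN RAR libraries and did not pass (adjusted p = 0.0773). It passed without Cre- control replicate 1 (adjusted p = 0.0249), without PTEC DN RAR replicate 2 (0.0122) and with no filter (0.0177, range 0.0122 to 0.207).

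For iron uptake and reduction, 3 of 15 genes fell and 6 rose, beside 17.1% and 23.6% of all genes. Lcn2, the siderophore-binding lipocalin of neutrophils and injured tubules, fell from 75.4 ± 18.3 to 36.3 ± 9.17 CPM (SD, n = 3 each; log2FC -1.06, adjusted p = 0.00517 by edgeR). Steap2, a metalloreductase, rose by 1.46 and Slc22a17, the lipocalin receptor, by 1.23 on the log2 scale, the second of these not passing without Cre- control replicate 3 (adjusted p = 0.0646, range 0.00098 to 0.0646) and at 0.73 without PTEC DN RAR replicate 3. Lrp2 and Cubn, the megalin and cubilin genes of proximal tubule endocytosis, rose by 1.67 and 1.79 and are also on the proximal tubule marker list. Bmp6, which drives hepcidin in the liver from endothelium, rose by 1.65 (adjusted p = 0.00082 by edgeR), beside hepcidin itself, Hamp, at no more than 0.0769 CPM, 1 library alone holding any read. Of 11 heme synthesis genes tested 3 rose and 0 fell, and of 14 genes for mitochondrial iron and iron-sulfur clusters 5 rose and 1 fell, beside 23.6% and 17.1% of all genes. Fdx1, a ferredoxin of cluster and steroid synthesis, rose by 1.03 (adjusted p = 0.0012). Mitochondrially encoded transcripts took 5.03% to 8.77% of counts in controls and 10.4% to 12.1% in PTEC DN RAR libraries.

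**Figure D4:**
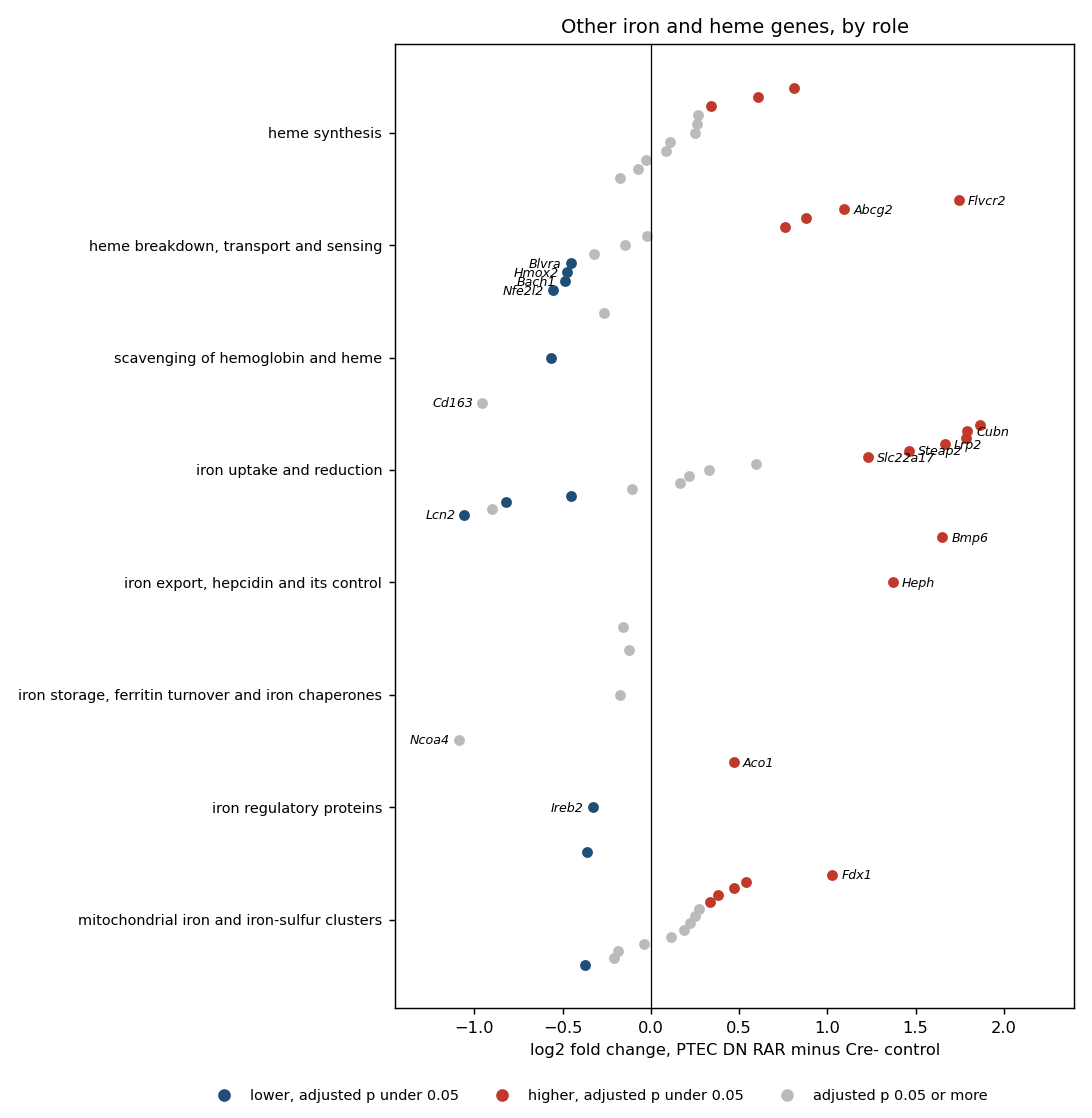
Log2 fold change (horizontal axis, PTEC DN RAR minus Cre- control) of the 63 other iron and heme genes tested, in rows by role; blue points were lower and red points higher at an adjusted p under 0.05, grey points did not pass, and named genes were chosen by a fixed rule. Genes for heme synthesis and mitochondrial iron lie mostly right of 0, and the genes at -0.45 to -0.56 in the second row are Blvra, Hmox2, Bach1 and Nfe2l2.

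For the iron regulatory proteins that bind the hairpins printed above, mRNA was measured and protein was not. Of the 3 genes listed under this role, 1 rose (Aco1) and 2 fell (Ireb2 and Fbxl5), beside 23.6% and 17.1% of all genes. Fbxl5 had a log2FC of -0.36 (adjusted p = 0.0176 by edgeR). Aco1, the gene for the cytosolic aconitase that becomes IRP1 when it lacks its cluster, rose from 89.4 ± 0.36 to 124 ± 7.75 CPM (SD, n = 3 each; log2FC 0.47, adjusted p = 0.00264 by edgeR). Ireb2, for IRP2, had a log2FC of -0.33 (adjusted p = 0.0488), a call lost under 9 alternatives besides the tubule covariate (range 0.00583 to 0.53), among them every omission of a single mouse but that of Cre- control replicate 1, from 0.0591 without PTEC DN RAR replicate 3 to 0.126 without Cre- control replicate 3. The lost calls without Cre- control replicate 2, PTEC DN RAR replicate 1 and PTEC DN RAR replicate 2 had 0.0763, 0.113 and 0.113. Of the 23 genes with the hairpin letters in a 5′ UTR, 20 were tested, of which 6 fell, Slc40a1 and Ftl1 among them, and 4 rose, beside 17.1% and 23.6% of all genes. Of 83 tested with the letters in a 3′ UTR, 13 fell and 21 rose, which is close to the shares among all genes.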

How the data were processed

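RNA-Seq libraries of CD11B+ cells from 3 PTEC DN RAR and 3 Cre- control mice were grouped by genotype label. The authors deposited raw read counts per Ensembl gene, made, per the submitters' processing notes, with STAR 2.5.0a and HTSeq 0.6.1 on GRCm38. The strand setting is not given in the sources used here, and exons of Slc48a1, Cp, Slc11a2 and Ftl1 overlap a gene on the other strand. Reads aligned to several places (42.9% to 47.8% of all counts in the table) were in no gene's count. Of 46612 lines, 9 repeats were merged. After filterByExpr and TMM, genes were compared by glmQLFTest (edgeR 4.0.16, R 4.3.3), with SE as log2FC over the square root of F, unadjusted 95% intervals, and a prior count of 2 for log2 CPM. The annotation was GENCODE M21, with lengths from APPRIS principal transcripts. Flvcr1, Flvcr2 and Tf were matched by RefSeq synonyms. Besides the members, 8 fixed genes were named, with pathway genes at an adjusted p under 0.05, a log2FC of at least 1 in size and a mean of at least 1 CPM. The members and lists were chosen with earlier results of these data known. The fits were tested on simulated data. Alternatives were DESeq2 1.42.0, limma 3.58.1 (voom), other scalings and filters, a replicate block, a tubule covariate, and omission of each mouse. No columns of samples were left unused.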

Additional observations from a re-analysis of the deposited data

How the results depend on the processing

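The members and 18 named pathway genes gave 448 values, with 16 alternatives for each gene. Of these values, 377 kept direction and side of the threshold, 45 lost the call (22 of them under the tubule covariate) and 23 gained it. The sign changed in 6, 3 of these among the lost calls. Some of the 18 were named because they passed in the edgeR fit with TMM at a log2FC of at least 1 in size. That choice favours kept calls, so 377 of 448 does not measure how stable the calls of unselected pathway genes are. The 4 members that fell became 7 with DESeq2, 7 with no filter and 1 with pan-leukocyte scaling, and from 2 to 6 with 1 mouse left out (2 without Cre- control replicate 1 or PTEC DN RAR replicate 2), while 2 rose in each. Over all genes, from 1874 to 2824 fell with 1 mouse left out, and the counts with DESeq2 and no filter are given above. Under pan-leukocyte scaling 4 pathway genes and 731 of all genes fell, and log2FC was -0.35 for Slc48a1, -0.47 for Slc40a1, -0.39 for Ftl1 and 0.11 for Tfrc. With the proximal tubule covariate 0 members fell and 0 rose, 0 pathway genes fell and 0 rose, and of all genes 1 fell and 0 rose in edgeR, with 640 at an unadjusted p under 0.05. Its log2FC were -0.055 for Hmox1, 0.013 for Slc48a1, -0.030 for Slc40a1, 0.40 for Cp, -0.26 for Ftl1, 0.24 for Slc11a2, -0.35 for Lrp2, -0.16 for Cubn and 0.035 for Ncoa4. Lrp2 and Cubn are themselves among the 16 markers averaged in the covariate, so loss of their calls there follows from its make-up. Blvrb passed at -0.61 with DESeq2, RLE and without mitochondrial genes, -0.56 with library size and -0.60 with no filter, Slc11a1 at -0.34, -0.34, -0.34, -0.29 and -0.33 under these, and Fth1 at -0.35 with DESeq2 and -0.34 with no filter. With 1 mouse left out, log2FC ranged from -0.77 to -0.29 for Blvrb, -0.73 to -0.37 for Slc48a1, -0.76 to -0.45 for Ftl1, -0.32 to 0.12 for Tfrc and -0.41 to -0.19 for Slc11a1. Apart from fewer samples or tested genes, the cause was not tested.

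The labels do not say that replicate numbers mark pairs, and deviations of same-numbered libraries correlated at -0.015, 0.21 and 0.029, while not every library correlated best with its own number. With the replicate block, 6 members fell and 2 rose, Blvrb (-0.54) and Slc11a1 (-0.29) passing as well. Of all 15440 genes tested, 2606 fell with the block. All members passed the filter on low counts, and the fewest reads on a member in a library were 978.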

Other observations

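The balance of heavy and light ferritin reads was examined after both genes had been seen. In Cre- controls there were 4.76, 5.44 and 4.75 Fth1 reads for each Ftl1 read, against 5.61, 6.72 and 5.85 for PTEC DN RAR mice. Each PTEC DN RAR library was thus above each control, and the means were 4.99 ± 0.397 and 6.06 ± 0.585 (SD, n = 3 each; p = 0.1 in an exact permutation test on both sides, the lowest value possible with 3 mice against 3). The ratio does not depend on the scaling between libraries. Since reads shared with ferritin pseudogenes were in no gene's count, it is not a ratio of transcripts.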
